A study of Mus musculus with 15 samples.

Results

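Chr18 of the mouse was measured in liver tumours and unaffected livers by array comparative genomic hybridisation (aCGH), which hybridises differently labelled tissue and reference DNA to the same spots of a slide. The probes described here are the non-control probes that the array design places on Chr18, 1212 of 42404 non-control probes (2.86%), and each of them gave a value in every one of the 8 tissues. The measure is log2 of tissue DNA over reference DNA, centred so that the median autosomal probe of an array lies at 0, and the level of a chromosome is the mean of its probes. From 3 mice came 5 hepatocellular carcinomas (HCC) and 3 unaffected livers, all of the strain C57BL/6.129-Mad2flox,p53flox,AlbuminCre, where Cre driven by the albumin promoter acts in hepatocytes and so leaves the floxed alleles of other liver cells in place. Mouse 3151, a female aged 16.4 months of the genotype Mad2(f/f) p53(f/+), gave HCC 1, HCC 2 and unaffected liver 1. Mouse 3760, a male aged 13.8 months, gave HCC 3 and unaffected liver 2. Mouse 4033, a male aged 13.9 months, gave HCC 4, HCC 5 and unaffected liver 3, and both males were Mad2(f/f) p53(f/f). The unaffected livers carried the same floxed alleles and the same Cre as the tumours of their mouse. The reference was normal liver DNA of strain C57BL/6.129 from an animal of the opposite sex. The methods describe it as wild type. Tissues were hybridised in both dye orientations except HCC 3, which had 1 array.

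A chromosome copy gained or lost at mitosis shifts all probes of that chromosome by the same amount, whereas a break within it shifts the probes on 1 side only. Mad2l1, called Mad2 in the labels, encodes a component of the spindle assembly checkpoint, which delays anaphase until chromosomes are attached to the spindle, and Trp53 encodes the tumour suppressor p53. In a resected tumour the level also depends on how many of its cells carry the gain, since normal and immune cells dilute it. Fewer cells with a gain and a smaller gain per cell cannot be told apart in these bulk samples. Mouse Chr18 carries the Wnt regulator Apc, the TGF-beta mediators Smad2, Smad4 and Smad7, the protocadherin clusters and several genes of hepatocyte metabolism.

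The Chr18 probes were 45 to 60 bases long and lay a median of 29.7 kb apart, from 3254025 to 90762649, and the largest stretch without a probe was 3.06 Mb. The design named a gene or transcript for 1015 of them, under 558 names, and 197 were named by position alone. In the tissues the 1 probe of Mad2l1 lay between -1.22 and 0.59 in the HCC and between 0.01 and 0.69 in the livers. It was lower than in the liver of the same mouse in 5 of 5 HCC, but by unlike amounts. HCC 1 and HCC 2 stood at -1.22 and -0.71 against 0.01 in their liver, and HCC 3 at 0.08 against 0.36. HCC 4 and HCC 5, at 0.53 and 0.59, lay above the reference and close to the 0.69 of their liver. The 1 probe of Trp53 lay between -2.07 and -0.19 in the HCC and between -0.88 and -0.07 in the livers, and was lower than in the own liver in 4 of 5 HCC. Whether these probes lie in the floxed exons was not tested. Chromosome X lay above 0 in the 3 tissues of the female mouse and below 0 in the 5 tissues of the males, the directions that a reference of the opposite sex gives. DNA carries no marker of the tissue it came from, so the tissue labels could not be checked beyond this.

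The Chr18 level was higher in every HCC than in any unaffected liver. From HCC 1 to HCC 5 it was 0.30, 0.17, 0.32, 0.43 and 0.40. From unaffected liver 1 to 3 it was 0.08, 0.07 and 0.03. The groups did not overlap, HCC 2 was the lowest tumour, and all 8 levels lay above 0. Centred on the mode of the probes instead of their median, the HCC stood at 0.19, 0.28, 0.35, 0.41 and 0.15, still above the livers at 0.04 to 0.07, but with HCC 5 as the lowest tumour. The tumours averaged 0.33 ± 0.10 (SD, n = 5) and the livers 0.06 ± 0.02 (SD, n = 3), a difference of 0.27 with an exact permutation p of 0.0179, the smallest that 56 splits of the tissues can give (two-sided). Here and below, these splits treat the 8 tissues as exchangeable, although they come from 3 mice and tissues of a mouse are paired. With the mouse as the unit an exact p cannot fall below 0.25. In the limma fit over 19 autosomes the difference of 0.27 had a standard error of 0.11. Its limma p was 0.0246 unadjusted and 0.234 adjusted, so it did not pass after adjustment. In that fit 5.26% of autosomes passed. Without HCC 2 the difference was 0.30 and its limma adjusted p was 0.0176. Leaving out any other HCC gave limma adjusted p from 0.144 to 0.307. Without unaffected liver 1, 2 or 3 it was 0.650, 0.746 or 0.714. Over all 8 tissues, centred on the median, 15.8% of all autosomes had every HCC above every liver.

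**Figure D1:**
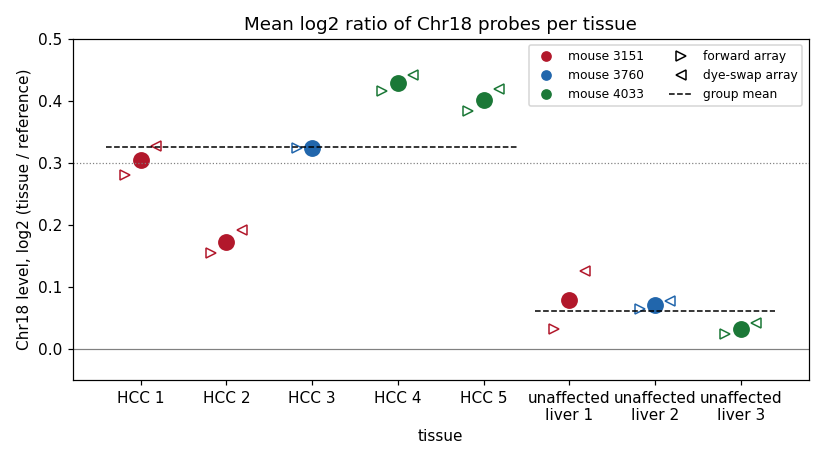
Chr18 level (y axis, mean log2 ratio of tissue over reference) in each of the 8 tissues (x axis), coloured by mouse. Filled circles are the level of the tissue, open triangles the forward and the dye-swap array, dashed lines the group means and the dotted line 0.3. The HCC lie between 0.17 and 0.43 and the unaffected livers between 0.03 and 0.08.

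Each HCC was also set against its own liver, that of the same mouse, which shares its germline and its reference. From HCC 1 to HCC 5 the difference of levels was 0.22, 0.09, 0.25, 0.40 and 0.37. These correspond to linear ratios of 1.17, 1.07, 1.19, 1.32 and 1.29. All 5 differences were above 0, and the tumours of mouse 4033 stood above the other 3. Centred on the mode the differences were 0.13, 0.22, 0.28, 0.38 and 0.12, all above 0 but with HCC 5 lowest. The share of the 1212 probes that were higher than in the own liver was, in the same order, 82.6%, 70.4%, 89.9%, 96.0% and 99.3%. The 3 HCC of the mice with 2 floxed Trp53 alleles averaged 0.34 ± 0.08 (SD, n = 3) over their own liver and the 2 HCC of the mouse with 1 such allele 0.16 ± 0.09 (SD, n = 2). This difference of 0.18 had an exact permutation p of 0.2 over 10 splits, which cannot give less than 0.1, and genotype, sex and mouse cannot be told apart in it. Centred on the mode it was 0.08, with an exact permutation p of 0.5.

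The forward and the dye-swap array of a tissue gave similar Chr18 levels, and the forward array was the lower of the pair in all 7 tissues that had both. Forward and swap levels were 0.28 and 0.33 for HCC 1, 0.15 and 0.19 for HCC 2, 0.42 and 0.44 for HCC 4, and 0.38 and 0.42 for HCC 5. They were 0.03 and 0.13 in unaffected liver 1, 0.06 and 0.08 in unaffected liver 2 and 0.02 and 0.04 in unaffected liver 3. The ranges of HCC 4 and HCC 5 overlapped, so their order is not settled by the arrays, and HCC 3 with its 1 array of 0.32 fell inside the range of HCC 1. HCC 2 lay below the ranges of the other HCC and above those of the 3 livers. Probe by probe the orientations agreed far less than the levels did, with r across the 1212 probes of a tissue from -0.16 to 0.39, where probes are not independent replicates. Single probes and genes are therefore less certain than the level of the chromosome. The difference between the groups was 0.31 within the first scan day, 0.22 within the second, and 0.25, 0.37 and 0.35 within the slides that held both groups. The slide with HCC 1 and HCC 2 held no liver.

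Centred on the autosomal median, Chr15 and Chr16 were the other autosomes on which every HCC lay above every liver. Chr15 stood at 0.50, 0.33, 0.36, 0.72 and 0.56 in HCC 1 to HCC 5 and at -0.0002, 0.08 and 0.01 in the livers. It exceeded Chr18 by 0.17 ± 0.09 (SD, n = 5) among tumours and fell short of it in livers, at -0.03 ± 0.05 (SD, n = 3). The difference between the groups was 0.20, with an exact permutation p of 0.0179. Leaving out HCC 1, HCC 2, HCC 4 or HCC 5 raised that p to 0.0571 and leaving out unaffected liver 1 raised it to 0.0952, while the value stayed between 0.17 and 0.23. Chr15 minus Chr18 with the mouse as a block was 0.18, with an exact p of 0.25, the smallest that 3 mice can give.

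Chr16 showed another order of tumours than Chr18. From HCC 1 to HCC 5 it stood at 0.21, 0.38, 0.29, 0.02 and 0.06, so the tumours of mouse 4033 were highest on Chr18 and lowest on Chr16. Centred on the mode they were still lowest on Chr16, at 0.0042 and -0.19, but HCC 5 was then also the lowest on Chr18. On Chr16 HCC 5 then lay below all livers, which stood between -0.03 and -0.01, so the groups overlapped there. Chr16 minus Chr18 averaged -0.13 ± 0.25 (SD, n = 5) over the tumours against -0.07 ± 0.03 (SD, n = 3) over the livers, with an exact permutation p of 0.804. The spread among the HCC was larger than this difference. Among the 19 autosomes of a tissue Chr18 ranked 4, 5, 2, 3 and 2 from HCC 1 to HCC 5, counted from the highest. It ranked 1, 2 and 1 in the unaffected livers, where it lay at or below 0.08.

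**Figure D2:**
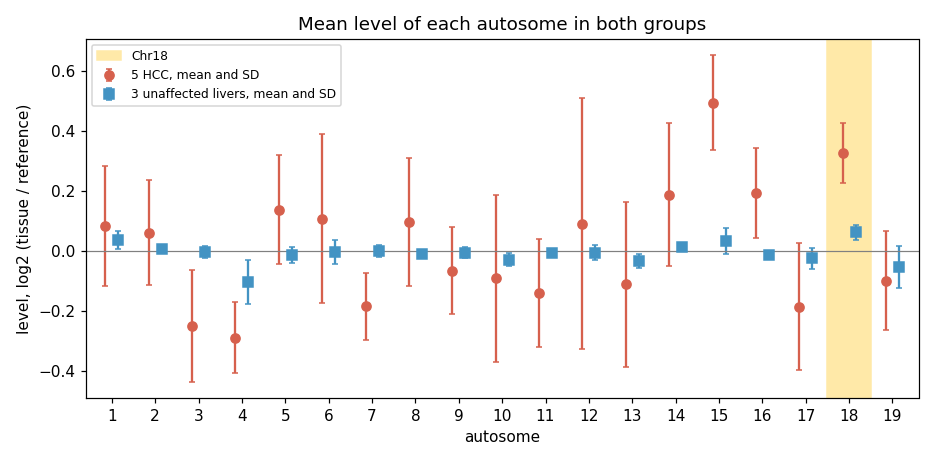
Level (y axis, log2 ratio of tissue over reference) of each of the 19 autosomes (x axis) as mean and SD of 5 HCC (circles) and 3 unaffected livers (squares), with Chr18 shaded. Chr18 averaged 0.33 in HCC and 0.06 in livers, and its SD among HCC was 0.10.

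To ask whether the shift covered the whole chromosome, Chr18 was divided into windows of 5 Mb. Of its 19 windows, 18 held at least 10 probes and were tested among 484 windows of all autosomes. In every one of these 18 windows every HCC was higher than the liver of its own mouse. HCC 4 ranged from 0.40 to 0.49 over the windows and HCC 5 from 0.37 to 0.46, so that all 18 windows of both lay above 0.3. HCC 1 ranged from 0.17 to 0.36 with 13 windows above 0.3, and HCC 3 from 0.22 to 0.45 with 11. HCC 2 ranged from 0.06 to 0.25 and the livers from -0.04 to 0.17, with no window above 0.3. After the own liver was subtracted the SD over windows was between 0.02 and 0.05 in the 5 HCC.

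HCC and livers did not overlap in 16 of the 18 windows, against 10.7% of all windows. The limma difference per window was between 0.24 and 0.29. No window of Chr18 passed an adjusted p of 0.05, which 0.826% of all windows did, and 17 of 18 were higher in HCC at an unadjusted p under 0.05, against 7.85% of all windows. None was lower at that p, against 1.86%. Under the alternatives, windows at an unadjusted p under 0.05 were counted in either direction. With the mouse as a block there were 6, without HCC 4 there were 9, and without unaffected liver 1, 2 or 3 there were 0. Centred on the mode of the probes there were 2. Without HCC 2, 13 windows passed the adjusted p. Shares over all windows were not counted under these alternatives. The window that missed the unadjusted p, from 10 to 15 Mb, held several of the single probes described below, and there HCC 2 stood at 0.06 and unaffected liver 2 at 0.16.

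**Figure D3:**
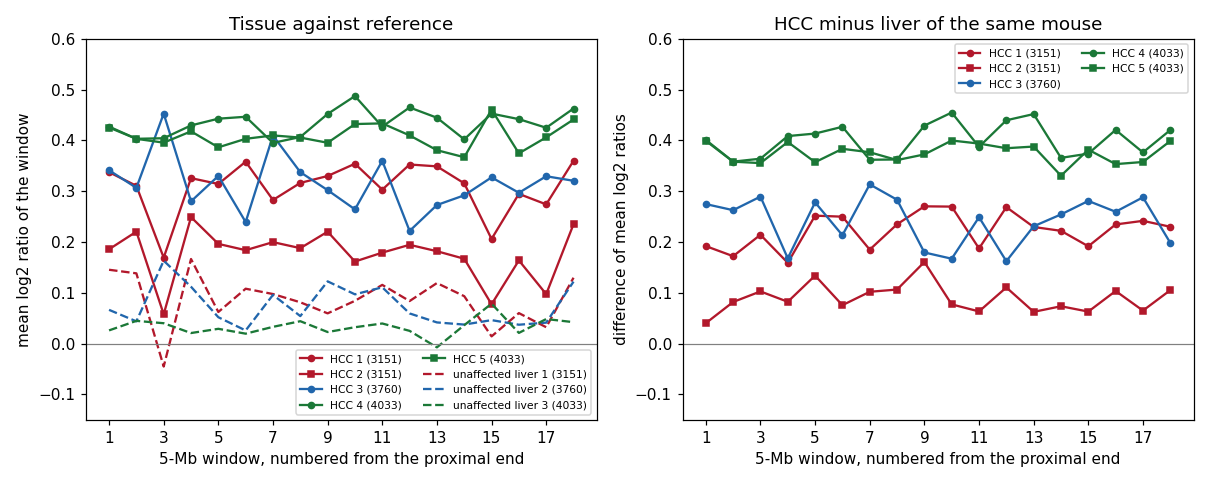
Mean log2 ratio of 18 windows of 5 Mb, numbered from the proximal end of Chr18 (x axis), as tissue against reference on the left and as HCC minus own liver on the right (y axes, log2). Each line is a tissue, coloured by mouse, with livers dashed. On the right all 5 HCC stay above 0 in all 18 windows.

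The distal and the proximal 606 probes gave the same picture. Distal minus proximal was 0.02, -0.02, -0.06, 0.02 and -0.001 in HCC 1 to HCC 5, and 0.01, -0.03 and -0.01 in the livers. Neither group lay on 1 side of 0. Tumours averaged -0.01 ± 0.03 (SD, n = 5) and livers -0.01 ± 0.02 (SD, n = 3), with an exact permutation p of 1.

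Breakpoints within Chr18 were sought by dividing the probes of each tissue into segments of at least 5 probes. Against the reference, Chr18 held 5, 5, 2, 0 and 2 breakpoints in HCC 1 to HCC 5 and 7, 10 and 4 in the unaffected livers. The livers therefore held more than the tumours on average, 7.0 ± 3.0 (SD, n = 3) against 2.8 ± 2.2 (SD, n = 5), with an exact permutation p of 0.0714. Without unaffected liver 3 that p was 0.0476. The noise of 1 probe was 0.11 to 0.20 in HCC and 0.08 to 0.18 in livers. Subtracting the own liver raised this noise to 0.12 to 0.26 in the HCC, and short segments are found less readily when it is higher. When the own liver was subtracted, Chr18 held 0 breakpoints in each of the 5 HCC. By the same measure 13 of 19 autosomes held a breakpoint in at least 1 HCC, 30 in all, and 6 held none.

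Short segments of Chr18, under 50 probes, were found in 7 of the 8 tissues. Segments with at least 50% of their probes in a more strongly shifted one were left out, and 10 regions remained, of which region 3 contains regions 4 and 5, and regions 9 and 10 share a probe. They were chosen for their shift in these arrays, so their values are a description. The first region, from 9840320 to 10010073, held 8 probes in Colec12, a scavenger receptor, Thoc1, a subunit of the THO complex for mRNA export, and Usp14, a deubiquitinase of the proteasome. Its shift from the Chr18 median was 0.27, 0.41 and 0.46 in HCC 1, HCC 2 and unaffected liver 1, and 0.30, 0.38 and 0.40 in HCC 4, HCC 5 and unaffected liver 3. The tissues of the other mouse, HCC 3 and unaffected liver 2, gave 0.05 and 0.01. The tissues of mice 3151 and 4033 were high, liver and tumour alike, and those of mouse 3760 were not. The median over the 8 probes was between 0.28 and 0.51 in the high tissues. Minus the own liver the region lay between -0.19 and 0.04 in the 5 HCC.

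Most of the other regions rested on single probes with large shifts. Counted after these values were seen, 8 Chr18 probes (0.660%) lay at least 1 from the Chr18 median, in the same direction, in every tissue of a mouse, against 0.390% of autosomal probes. In mouse 3151 all 6 such probes were low, in mouse 3760 all 6 were high, and 4 of them were the same probes with opposite signs. Mouse 4033 had none. The probe in Snrpd1, which encodes a core protein of the spliceosome, from 10625016 to 10625075, stood at -2.63 in HCC 1, -2.58 in HCC 2 and -3.10 in unaffected liver 1. The same probe stood at 2.51 in HCC 3 and 1.90 in unaffected liver 2, and between -0.50 and -0.19 in the tissues of mouse 4033. The probe in Riok3, an atypical kinase, from 12308884 to 12308943, stood at -2.27, -1.96 and -1.81 in the tissues of mouse 3151, at 2.29 and 1.72 in those of mouse 3760, and between -0.15 and 0.11 in those of mouse 4033.

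A further pair of probes near these, 1 in the transcript AK135754 and 1 in the oxysterol-binding protein gene Osbpl1a, had the same pattern of low values in mouse 3151 and high values in mouse 3760. In mouse 3760 alone, a probe in Stard4, a sterol transporter, stood at 2.12 in HCC 3 and 1.72 in unaffected liver 2, and the probe in Lars, the cytosolic leucyl-tRNA synthetase, from 42393430 to 42393489, at 2.06 and 3.21. The probe in Stard6, from 70637290 to 70637349, stood at -3.11 in HCC 1, -3.66 in HCC 2 and -2.61 in unaffected liver 1, and at 0.63, 1.16 and 1.08 in HCC 4, HCC 5 and unaffected liver 3. The last of the 8, from 84994080 to 84994139 and named by position alone, stood at -1.95, -1.81 and -1.74 in the tissues of mouse 3151.

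Leaving out the 8 probes lowered the breakpoints of Chr18 over the 8 tissues from 35 to 8, with 0 left in HCC 1, HCC 2, HCC 3 and HCC 4 and 2 in each of the other tissues. The breakpoints that remained bounded the region of Colec12, Thoc1 and Usp14 in HCC 5 and unaffected livers 1 and 3, and a segment of 5 probes around Dtwd2, Dmxl1 and Tnfaip8, from 49883432 to 50221058, in unaffected liver 2. The Chr18 level moved by at most 0.01 in any tissue. Across the remaining 1204 probes, tissues of the same mouse correlated with r from 0.20 to 0.48 in 7 pairs and tissues of different mice with r from -0.26 to 0.20 in 21 pairs. Across all 1212 probes the same pairs gave 0.25 to 0.63 and -0.34 to 0.21. By rank (Spearman's rho, all 1212 probes) the ranges overlapped, at 0.05 to 0.38 with a median of 0.14 within a mouse and -0.35 to 0.25 with a median of 0.15 between mice. These pairs share slides, scan days and references to different extents.

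**Figure D4:**
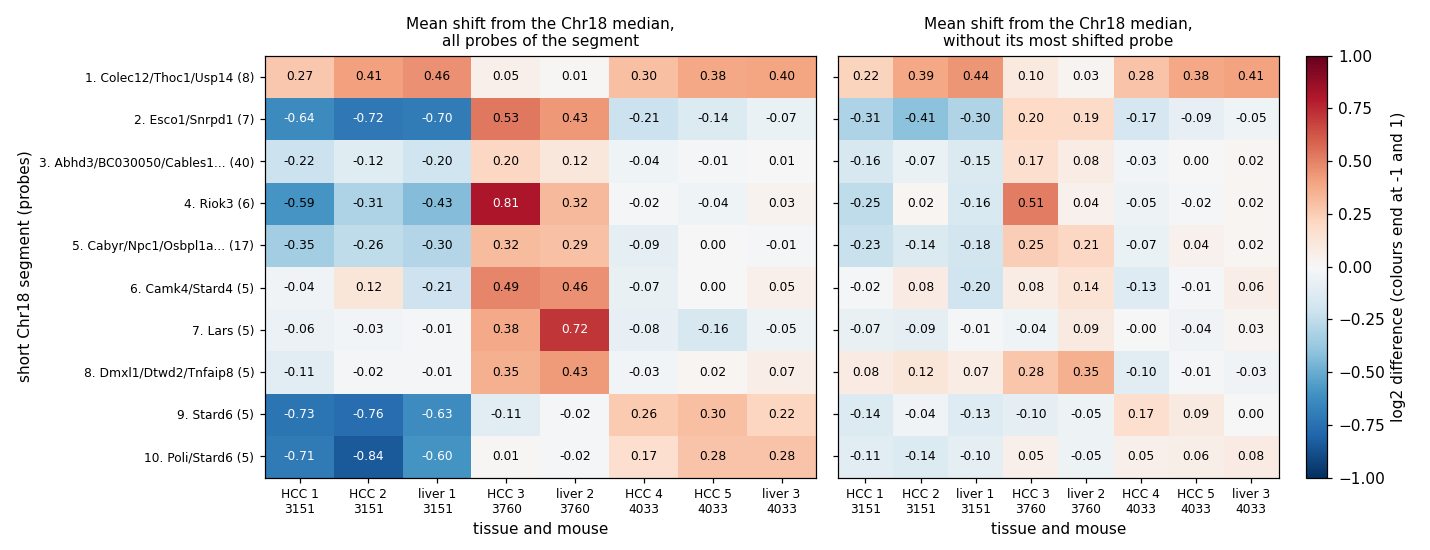
Mean shift from the Chr18 median (log2, colour and printed value) of 10 short segments (rows, probes in parentheses) in 8 tissues ordered by mouse (columns), with all probes of the segment on the left and without its most shifted probe on the right. Segment 1 keeps shifts of 0.22 to 0.44 in mice 3151 and 4033 on the right, while segments 6, 7, 9 and 10 lie between -0.20 and 0.17 there.

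Some segments had unlike mean shifts in a tumour and its own liver. Segment 4 was chosen for its shift in HCC 3 and segment 7 for its shift in unaffected liver 2, so these gaps are a description. With the own liver subtracted, Chr18 held 0 breakpoints in the HCC. Segment 4, around Riok3, stood at 0.81 in HCC 3 and 0.32 in unaffected liver 2, and without its most shifted probe at 0.51 and 0.04. HCC 3 rests on 1 array with no dye swap. In HCC 1 and HCC 2 it lay at -0.59 and -0.31 against -0.43 in their liver. Segment 7, around Lars, stood at 0.38 in HCC 3 against 0.72 in unaffected liver 2, and segment 6, around Camk4 and Stard4, at 0.12 in HCC 2 against -0.21 in unaffected liver 1.

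The difference was similar from gene to gene along Chr18. Of the 558 names on Chr18, 551 had a higher mean in HCC than in livers, and their median difference was 0.27, with quartiles of 0.22 and 0.32. The median over 19971 names of all autosomes was -0.01. At an unadjusted p under 0.05 the limma fit gave 222 higher in HCC (39.8%), against 5.75% of all names, and 0 lower, against 2.37%. The groups did not overlap in 268 (48.0%), against 6.06%. Neither here nor elsewhere did a name pass the adjusted p (0% of all names), and the lowest on Chr18 was 0.195. Of the single probes 367 (30.3%) were higher at an unadjusted p under 0.05, against 5.34%, and 457 (37.7%) did not overlap, against 5.3%. No probe passed the adjusted p, which 0% of all probes did, and the lowest on Chr18 was 0.309. Under the alternatives, names and probes at an unadjusted p under 0.05 were counted in either direction. With the mouse as a block they were 113 names and 203 probes. Leaving out HCC 2 gave 351 names, leaving out HCC 4 gave 140, and leaving out unaffected liver 1, 2 or 3 gave 94, 68 or 58. For probes these counts were 584 without HCC 2, 231 without HCC 4 and 151, 116 and 92 without a liver. Centred on the mode they were 91 names and 150 probes. Shares over all names and all probes were not counted under these alternatives.

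In the 5 names with the smallest p the HCC mean lay 0.03 to 0.14 above the Chr18 median and the liver mean 0.07 to 0.31 below it. Mapre2, a microtubule plus-end binding protein, stood at 0.32, 0.13, 0.40, 0.61 and 0.39 in HCC 1 to HCC 5 and at -0.07, -0.41 and 0.04 in the livers, a difference of 0.52 (SE 0.15, limma adjusted p 0.242). The transcript AK028973 stood at 0.36, 0.24, 0.76, 0.41 and 0.11 in the HCC and at -0.54, -0.11 and -0.10 in the livers, a difference of 0.62 (SE 0.16, limma adjusted p 0.195). In both the groups did not overlap, and 1 liver lay well below the others. Pcdhb5 of the protocadherin beta cluster differed by 0.48, Fbxo38, an F-box protein, by 0.45, and the urea transporter gene Slc14a2 by 0.44, with limma adjusted p from 0.237 to 0.255. Each of these 3 had unaffected liver 1 as its lowest tissue, at -0.24, -0.19 and -0.18.

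Genes of the Wnt pathway, where Apc is the scaffold that marks beta-catenin for destruction, shared the level of the chromosome. All 7 on the list were measured, with differences from 0.22 for the ligand Wnt8a to 0.28 for the casein kinase Csnk1a1 and a median of 0.26. Apc stood at 0.24, 0.14, 0.32, 0.51 and 0.50 in HCC 1 to HCC 5 and at 0.14, 0.07 and 0.08 in the livers. Only HCC 2 fell into the range of the livers, and the Apc difference of 0.25 had a standard error of 0.13. Apcdd1, a Wnt inhibitor at the cell membrane, was higher in every HCC, from 0.26 to 0.47, than in the livers, from 0.06 to 0.21. Of the 7, 2 passed the unadjusted p, against 39.8% of Chr18 names and 5.75% of all names, and 0 the adjusted one.

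Of the 6 genes of TGF-beta signalling, 5 were higher at the unadjusted p (39.8% of Chr18 names and 5.75% of all names were), 0 passed the adjusted one, and the median difference was 0.29. Bambi, a decoy receptor that dampens TGF-beta signals, had the largest difference, 0.44 (SE 0.13), with 0.47, 0.18, 0.57, 0.33 and 0.55 in HCC 1 to HCC 5 and 0.07, -0.08 and -0.05 in the livers. Nedd4l, a ubiquitin ligase of the pathway, had the smallest, 0.22. Smad2 and Smad4, the receptor-regulated and the common mediator, and the inhibitory Smad7 were named after their values were seen. Smad2 stood at 0.37, 0.26, 0.47, 0.28 and 0.50 in the HCC and at -0.01, 0.07 and -0.03 in the livers, a difference of 0.37. Smad4 stood at 0.19, 0.21, 0.48, 0.27 and 0.41 in the HCC and at 0.13, -0.12 and 0.05 in the livers, a difference of 0.29. For both the groups did not overlap. Smad7 differed by 0.30, but HCC 2 at 0.18 lay below unaffected liver 1 at 0.22. Corl2, the design's name for the SMAD corepressor gene Skor2, differed by 0.28.

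Among growth factors, receptors and kinases 12 of 13 listed genes were measured and Nrg2 was not found among the names. The median difference was 0.28, 7 passed the unadjusted p, beside 39.8% of Chr18 names and 5.75% of all names, and 0 the adjusted one. Csf1r, the receptor that macrophages need for survival, differed most, by 0.40 (SE 0.14), with 0.31, 0.02, 0.28, 0.54 and 0.44 in HCC 1 to HCC 5 and -0.16, -0.10 and 0.003 in the livers. Its groups did not overlap, although HCC 2 lay close to unaffected liver 3. Pdgfrb, a receptor of fibroblasts and pericytes that neighbours it on the chromosome, differed least, by 0.14, with HCC 2 at -0.10. The kinase genes at the ends of the list, Map3k8 and Mapk4, differed by 0.30 and 0.40.

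Of 14 genes of mitosis and cell division 13 were measured, Cep192 not being among the names. Their median difference was 0.27, 4 passed the unadjusted p, a lower share than the 39.8% of Chr18 names but above the 5.75% of all names, and 0 the adjusted one. Their range was the widest of the lists, from 0.15 for the contractility kinase Rock1 to 0.52 for Mapre2. Rock1 stood at -0.10 in HCC 2 and at 0.26 to 0.43 in the other HCC. Ccdc5, now Haus1, a subunit of the augmin complex that nucleates spindle microtubules, differed by 0.27.

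Of 14 genes of hepatocyte metabolism and secretion, all measured, 6 passed the unadjusted p, close to the 39.8% of Chr18 names and above the 5.75% of all names, 0 passed the adjusted one, and the median difference was 0.27. Hsd17b4, an enzyme of peroxisomal beta-oxidation, differed most, by 0.33 (SE 0.14), with 0.12, 0.26, 0.16, 0.49 and 0.44 in HCC 1 to HCC 5 and -0.17, 0.001 and 0.07 in the livers. The groups did not overlap. Atp8b1, a phospholipid flippase of the bile canaliculus, differed least, by 0.15. Gata6, a transcription factor of endoderm, differed by 0.29, with HCC 3 at -0.14, and the endothelial lipase gene Lipg by 0.18.

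Of the 10 genes listed under apoptosis and tumour suppressors 3 passed the unadjusted p, against 39.8% of Chr18 names and 5.75% of all. None passed the adjusted one, and the median difference was 0.23. The heading is that of the list and does not give the role of each gene on it. The early response factor Egr1 differed most, by 0.38 (SE 0.13), with 0.35, 0.55, 0.61, 0.57 and 0.30 in HCC 1 to HCC 5 and 0.24, 0.02 and 0.02 in the livers. The groups did not overlap. The methyl-CpG binding protein gene Mbd2 differed least, by 0.12, and Bin1 and Setbp1 at the ends of the list by 0.15 and 0.23. Over the 7 lists, all 83 measured genes had a higher mean in HCC, as did 551 of the 558 Chr18 names. The median difference over all names was -0.01.

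The protocadherin cluster, whose genes encode neuronal adhesion molecules of closely related sequence, had 21 measured members, most of them with 1 probe. Their median difference was 0.29, 8 passed the unadjusted p, 0 the adjusted one, and in 11 the groups did not overlap. These shares were close to the 39.8% and 48.0% of all Chr18 names, against 5.75% and 6.06% of all names. Pcdhb5 differed most, by 0.48 (SE 0.14), with 0.42, 0.33, 0.62, 0.53 and 0.49 in HCC 1 to HCC 5 and -0.24, 0.16 and 0.08 in the livers. Pcdhb8 differed least, by 0.16, with HCC 2 at -0.07 and the other HCC between 0.27 and 0.54. A probe in 1 of these genes may also bind DNA of its neighbours, so single members are uncertain.

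**Figure D5:**
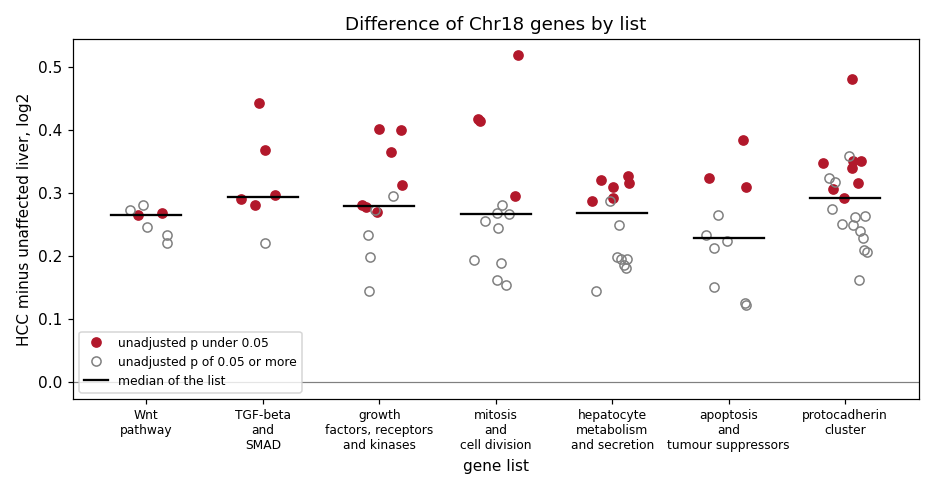
Difference of the mean log2 ratio, HCC minus unaffected liver (y axis), for the measured genes of 7 lists (x axis), 1 point per gene. Filled points had an unadjusted limma p under 0.05, open points did not, and bars are list medians, which lie between 0.23 and 0.29. Every point lies above 0.

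The first and the last gene named on the measured chromosome both had a higher mean in HCC than in livers. Crem, a cAMP response factor and the first gene named on Chr18, stood at 0.33, 0.25, 0.45, 0.52 and 0.46 in HCC 1 to HCC 5 and at 0.23, 0.12 and 0.07 in the livers. Txndc10, now Tmx3, a thioredoxin-like protein of the endoplasmic reticulum and the last gene named, stood at 0.19, 0.32, 0.38, 0.31 and 0.36 in the HCC and at 0.17, 0.15 and 0.06 in the livers. The groups overlapped in neither, and the differences were 0.26 (SE 0.13) and 0.18 (SE 0.12). Their limma p was 0.0542 and 0.151 unadjusted, so neither passed 0.05. Of the 558 names 349 (62.5%) were higher than in the own liver in all 5 HCC, against 8.73% of all names. The 7 names with a lower mean in HCC included Lars, Stard6 and AK135754, which hold the single probes described above. In the livers themselves Lars lay farthest from the Chr18 median, by 0.48, followed by AK135754 at -0.37, Usp14 at 0.36, AK028973 at -0.31 and AK033147 at -0.31, as means of the 3 livers. The livers differed widely among themselves, from -0.14 to 1.60 for Lars and from -2.71 to 1.72 for AK135754, so that the mean for Lars rests on unaffected liver 2 and that for AK135754 on livers of opposite sign. For Usp14, at 0.52, 0.10 and 0.45, and for the last pair all 3 livers lay on the same side.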

How the data were processed

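Genomic DNA of 8 liver tissues was hybridised to 15 Agilent CGH arrays. The deposited scanner files hold intensity values that, per the file headers, the authors made with Agilent Feature Extraction 9.1.3.1 by background subtraction, detrending and dye normalisation. The deposited log10 ratios of the series table equalled LogRatio of those files after a change of sign for dye swaps. Here the processed intensities gave the log2 ratio of tissue to reference, with dye swaps inverted. Control and outlier-marked spots were left out, spots of a probe averaged and arrays centred on the autosomal median without loess, since such a fit can remove chromosome-wide shifts. Both orientations of a DNA were averaged to 1 replicate. Positions are those of the files, whose genome build is not given in the sources used here. Of 558 names 336 matched a current and 56 an older symbol of the GRCm38.p6 gene table.

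Autosomes (19), windows of 5 Mb with at least 10 probes (484), gene names (19971) and probes (40720) were compared by limma 3.58.1 in R 4.3.3 (two-sided, Benjamini-Hochberg, threshold 0.05), and single values by exact permutation. Segments came from optimal partitioning (at least 5 probes, penalty of 3 times noise variance times log probe number). The steps were run on simulated data, which held neither the pairing by mouse nor single probes with large shifts. Signal over background had medians of 3.72 to 7.95, and the number of tissues limits the precision. The replicates are separate tissues, but of 3 mice. Tissues of the same animal are paired: on Chr18, r of their deviations from group means was 0.22 to 0.58 within a mouse and -0.51 to 0.08 between mice. Deviations of the livers from their mean sum to 0, so positive values within a mouse go with negative ones between mice. By rank, without this centring, the ranges overlapped. Slides (4) and scan days (2) were tried as blocks. The genes named were, per list, those at the ends of the chromosome and with the highest and lowest difference, the 5 with the smallest p, the 5 farthest from the Chr18 median in livers, the first and last named, and those in segments under 50 probes. The Chr18 probes, gene lists and tests were chosen with earlier results of these data known. No sequence is printed. Segments used numba 0.67.0, plots matplotlib 3.10.9, and the rest Python 3.11.15 with scipy 1.17.1, pandas 2.3.3 and numpy 2.4.6.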

Additional observations from a re-analysis of the deposited data

Results flagged for a closer look

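A pair of named genes had 1 tumour far from the other HCC, out of 58 measures examined in the 5 HCC, where chance marks about 1 in 20. Pcdhga1 stood at 0.19 in HCC 2 and between 0.41 and 0.46 in the other HCC. Lars stood at 1.35 in HCC 3 and between 0.07 and 0.33 in the other HCC, and unaffected liver 2 of the same mouse stood at 1.66.

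For 4 of 35 named genes, HCC minus own liver was below 0 in both tumours of the female mouse and above 0 in the 3 tumours of the males, which was not tested and in which sex, genotype and mouse cannot be told apart. The female mean minus the male mean was -0.45 for Pdgfrb, -0.55 for Atp8b1, -0.39 for Mbd2 and -0.58 for Pcdhb8. Each of these 4 was named because it had the smallest HCC minus liver difference of its list in these same data. Both female tumours were set against unaffected liver 1, the highest of the livers for all 4, at 0.17, 0.24, 0.30 and 0.30. The share of all Chr18 names with this pattern was not counted. The Chr18 level itself was above the own liver in both sexes.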

How the results depend on the processing

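The Chr18 difference kept its direction under all 21 alternatives, between 0.22 and 0.32. Its adjusted call changed without HCC 2 (0.30, within a range of 0.24 to 0.30 when each tissue was left out). The exact permutation test (0.27, p 0.0179), run also without the 8 probes with large shifts (0.27), was below 0.05 but is not adjusted over the autosomes. The limma p was also below 0.05 before adjustment, at 0.0246. With mouse as the replicate block the Chr18 difference was 0.27 (adjusted p 0.423) and no adjusted call changed, and with slide as a block 0.32 (adjusted p 0.0993). Chr18 windows called ranged from 0 to 13 when each tissue was left out, 13 being without HCC 2, where the share over all windows was not counted. Probes and genes called were 0 under every alternative. Distal minus proximal turned to 0.0041 with normexp background and 0.0018 with GC regressed out, and ranged from -0.010 to 0.011 when each tissue was left out. Chr15 minus Chr18 was 0.18 with the replicate block (p 0.25) and 0.17 to 0.23 when each tissue was left out. Chr16 minus Chr18 ranged from -0.15 to 0.0073, the latter without HCC 4. Breakpoints per HCC were 1.0 with normexp, 0.8 without dim probes, 6.2 with a penalty of 2, 0 with the own liver subtracted at either penalty, and 0.4 without the 8 probes. A total of 4 HCC lay above 0.3, against 2 with centring on the mode, 2 with the own liver subtracted and 0 at a threshold of 0.5. The mode moved the centre of HCC 5 by 0.25, of HCC 1 by 0.11 and of HCC 2 by -0.11. Lars, at -0.08, turned to 0.062 with normexp, 0.27 without dim probes, 0.11 with the replicate block, 0.060 with scan day and 0.026 with slide as a block, and ranged from -0.40 to 0.48 when each tissue was left out. AK135754, at -0.19, turned to 0.23 with the replicate block, 0.59 with scan day and 0.84 with slide as a block, and ranged from -1.34 to 0.85 when each tissue was left out. The causes of these changes were not tested. The alternatives without the 8 probes, the own liver with a penalty of 2, the count above 0.3 with forward arrays, GC regression or without dim probes, and the order of tumours and the genotype contrast centred on the mode were chosen after seeing the data.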
